A study of Drosophila melanogaster with 6 samples.

Results

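The baseline transcriptome of escargot-positive gut cells was described from the levels of mRNAs in the 2 control libraries of the series, w1118 and attP2. A protein-coding gene was counted as a member when its level was at least 10 FPKM (fragments per kilobase of transcript per 1000000 mapped fragments) in both libraries, and members were ranked by the lower of both values. Of 13571 protein-coding genes listed, 4697 were members (34.6%). The whole table lists 15603 genes. The median of the lower value was 27.4 FPKM over the members and 1.84 FPKM over all protein-coding genes.

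RNA came from GFP-positive cells sorted by flow cytometry from intact guts of adult female Drosophila melanogaster. Each sample was about 100 guts, taken at 7 days of age. GFP was driven in every library by esg::Gal4, which is active in intestinal stem cells and enteroblasts, and was held off by a ubiquitous temperature-sensitive Gal80 (tub::Gal80ts) until the flies were moved to 29 °C. The w1118 library carried only these transgenes in a w1118 background, spent 2 days at 29 °C and came from 24387 sorted cells. The attP2 library carried in addition 1 copy of the empty attP2 landing site and X chromosomes of both w1118 and y1,sc*,v1 origin, spent 4 days at 29 °C and came from 62921 cells. The other 4 libraries, CncCRNAi, HttQ138, CncCRNAi+HttQ138 and Rpn3RNAi, carried a hairpin, an expanded polyglutamine protein or both under the same driver, with 4 days at 29 °C for Rpn3RNAi and 2 days for the rest. Each condition is 1 library, so no difference has a replicate check. w1118 and attP2 are not replicates of each other: genotype and days at 29 °C change together between them and cannot be told apart.

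The midgut epithelium is renewed by intestinal stem cells. A stem cell signals through Delta to Notch in its daughter, which becomes an enteroblast and then an absorptive enterocyte, while other daughters become hormone-secreting enteroendocrine cells. The zinc-finger repressor Escargot is known for holding stem cells and enteroblasts undifferentiated, and JAK/STAT, EGFR, Wnt, insulin and Notch signals are known to set their division and fate.

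The depth estimated from the steps between low FPKM values was 3070000 fragments in w1118 and 3550000 in attP2, and 2770000 to 3640000 in the other 4 libraries. At these depths 10 FPKM of a 1000-nucleotide transcript was about 26 fragments in w1118 and 30 in attP2. Between 83.0% and 86.9% of the low values lay within 0.1 of a whole number of fragments. The FPKM of protein-coding genes summed to 757767 in w1118 and 673983 in attP2, so scaling both to the same protein-coding total moves every ratio of attP2 to w1118 up by 0.17 on the log2 scale. A value of 0 was not read as absence, since RpL15 and eIF4B, needed by every cell, were listed at 0 in all 6 libraries, as were all 13 protein genes of the mitochondrial genome.

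The driver gene itself was high. esg was at 346 FPKM in w1118 and 325 FPKM in attP2, and between 287 and 346 FPKM over all 6 libraries. Delta (Dl), the Notch ligand that defines stem cells, went against a stem cell label. It was at 1.25 FPKM in w1118 and 1.48 FPKM in attP2, about 20 and 27 fragments, and at 0.803 to 2.34 FPKM over the 6 libraries, so that it was not a member. The cells are therefore called escargot-positive here and not stem cells. In sorted bulk RNA, few Dl-positive cells and little Dl mRNA per cell cannot be told apart.

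Most other progenitor markers were well above the threshold, and 15 of 19 (78.9%) were members, against 34.6% of all protein-coding genes. All 15 were at 10 FPKM or more in each of the 6 libraries. The highest were Notch-responsive genes of the Enhancer of split complex, whose products act in cells that receive the Delta signal. E(spl)mbeta-HLH, a repressor, was at 1509 FPKM in w1118 and 910 FPKM in attP2. E(spl)malpha-BFM, a Bearded-family protein, was at 824 and 662 FPKM, and the repressor E(spl)m3-HLH at 332 and 312 FPKM. These 3 genes thus ranked from 107 to 208 among the 4697 members, while the ligand was under the threshold.

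The remaining progenitor markers covered transcription factors, adhesion proteins and an asymmetry factor. Sox100B and Sox21a, HMG-box factors of the stem cell lineage, were at 191 and 301 FPKM and at 102 and 118 FPKM in w1118 and attP2. Stat92E, the effector of JAK/STAT signalling, was at 223 and 180 FPKM. The integrin alpha subunit gene mew was at 191 and 136 FPKM, and shg, which encodes E-cadherin, at 80.3 and 51.7 FPKM. All of these differed by less than 2-fold between both controls. mira, whose product carries fate determinants in dividing neuroblasts, was at 126 and 66.8 FPKM. klu, a repressor known from enteroblasts, was at 74.1 and 52.1 FPKM, and peb (hindsight) was at 62.6 and 74.3 FPKM. Tis11, an mRNA decay factor, was at 63.8 and 54.5 FPKM, zfh2 at 47.5 and 31.1 FPKM, and hdc (headcase) at 33.5 and 21.7 FPKM. The 4 markers that were not members were Dl, sna (6.19 and 17.6 FPKM), spdo (3.20 and 10.1 FPKM) and chinmo, which was listed at 0 in both controls.

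Most of the transcript pool encoded the translation machinery. The 10 highest members held 12.7% of all protein-coding FPKM in w1118 and 11.1% in attP2, the 100 highest held 61.3% and 52.6%, and all members together held 97.8% and 97.2%. Cytosolic ribosomal proteins filled 78 of the first 100 ranks and 29 of the first 30. Their sum came to 55.2% of protein-coding FPKM in w1118 and 45.7% in attP2, and 84 of the 93 listed genes were members, with a median lower value of 3560 FPKM. Above 1000 FPKM stood 102 members, 87 of them in the 3 translation lists. A further 546 members lay between 100 and 1000 FPKM, and 4049 between 10 and 100 FPKM.

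**Figure D1:**
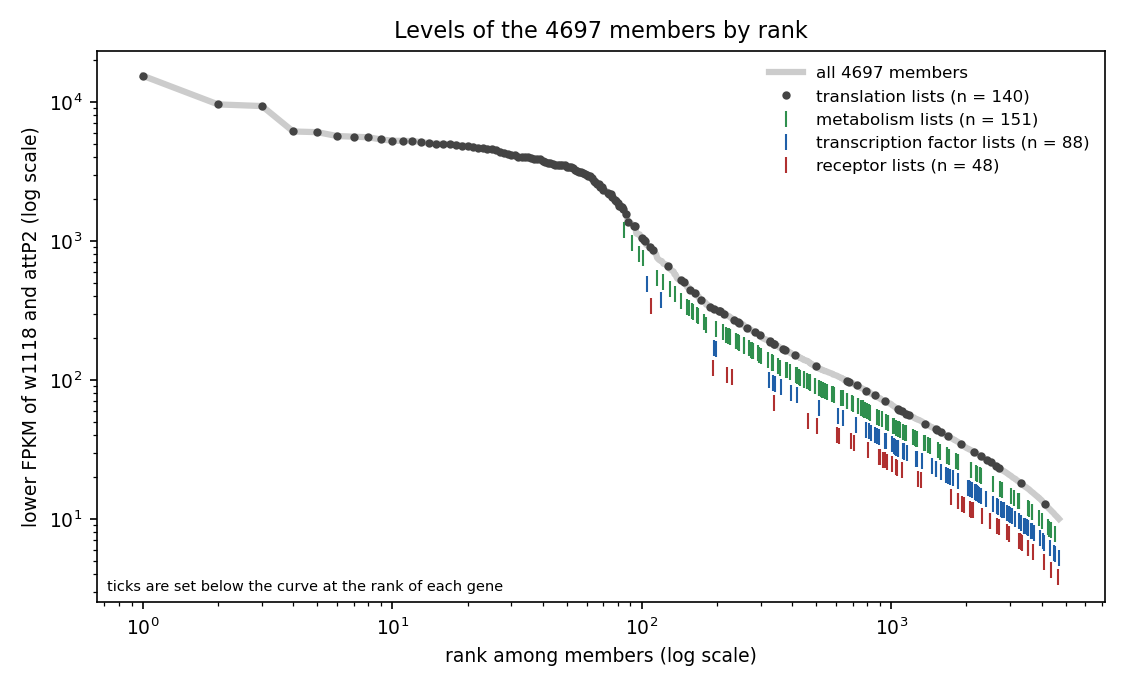
Each member's lower FPKM of w1118 and attP2 (log scale) against its rank (log scale), with the whole set in grey, genes of the translation lists as dark points and genes of the metabolism, transcription factor and receptor lists as coloured ticks set below the curve at their ranks. The translation lists fill the top, and listed transcription factors begin at rank 105 with crc, and the receptor lists at rank 109 with pirk, a cytoplasmic inhibitor, and at rank 192 with the integrin mys.

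The short ribosomal proteins RpL41 (21369 FPKM in w1118 and 15395 FPKM in attP2) and RpL39 (12745 and 9588 FPKM) held the first 2 ranks. FPKM of such short transcripts rests on an effective length, so their order against longer genes is less sure. The third rank went to eEF1alpha1, the factor that brings aminoacyl-tRNA to the ribosome, at 9333 and 10075 FPKM. RpS27A was at 7825 and 6124 FPKM, RpS7 at 8463 and 6055 FPKM, and RpL27 at 7774 and 5679 FPKM. The other 24 of the first 30 ranks, all ribosomal proteins, had lower values of 4169 to 5617 FPKM. No ribosomal protein member was higher in attP2 than in w1118 as deposited, and 2 of 84 were after scaling to the same total; the background is 59.0% of members as deposited and 74.9% after scaling.

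Translation factors followed. Of 38, 36 were members, led after eEF1alpha1 by Rack1, a scaffold of the small ribosomal subunit (4606 and 3684 FPKM in w1118 and attP2), and by the elongation factor eEF2 (3196 and 3319 FPKM). eEF5, which helps ribosomes through stalling sequences, was at 2927 and 2568 FPKM, the helicase eIF4A at 2528 and 1784 FPKM, and eEF1gamma at 1566 and 1376 FPKM. Thor, the 4E-BP that restrains cap-dependent initiation, was at 1108 and 862 FPKM. The levels of this group were close in both controls, with a median ratio of attP2 to w1118 of 0.953. All 20 cytosolic aminoacyl-tRNA synthetases were members at a lower scale, with a median lower value of 41.7 FPKM. Of these, 18 were higher in attP2 (median ratio 1.87) and 19 after scaling, against 59.0% and 74.9% of all members. The highest, AspRS, was at 182 and 323 FPKM. LysRS was at 98.1 and 119 FPKM, ThrRS at 96.9 and 196 FPKM, AsnRS at 83.8 and 237 FPKM, TyrRS at 77.4 and 92.4 FPKM, and HisRS at 61.7 and 86.1 FPKM.

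Outside the translation lists, 15 members reached 1000 FPKM in both controls, and cytoskeleton, energy and protein-folding genes made up most of them. The highest was Act5C, the main cytoplasmic actin, at 2304 FPKM in w1118 and 3166 FPKM in attP2. The next were cib, an actin-monomer-binding beta-thymosin (2404 and 2289 FPKM), and Hsc70-4, a constitutive chaperone (2615 and 1984 FPKM). ATPsynC, the rotor ring subunit of ATP synthase, was at 1893 and 1658 FPKM. These genes were of the same order of magnitude in all 6 libraries, with the lowest value of the 4 for ATPsynC in Rpn3RNAi (826 FPKM). The other 11 were alphaTub84B, the calponin-like gene Chd64, the unnamed gene CG15126, the nucleoside diphosphate kinase gene awd, the cyclophilin gene Cyp1, the cofilin gene tsr, betaTub56D, ATPsynbeta, the ubiquitin gene Ubi-p5E, the unnamed gene CG15098 and sesB, the mitochondrial ADP/ATP carrier. CG15126 was uneven over the libraries, at 1344 FPKM in w1118, 2498 FPKM in attP2 and 4468 FPKM in CncCRNAi+HttQ138.

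A list of actin, myosin and tubulin genes, drawn up after these levels had been seen, had 38 of 40 genes as members and held 2.20% of protein-coding FPKM in w1118 and 2.90% in attP2. Its median lower value was 135 FPKM. The nonmuscle myosin II genes zip (heavy chain) and sqh (regulatory light chain) were at 505 and 581 FPKM and at 602 and 670 FPKM, and Rho1, the GTPase that activates this myosin, was at 732 and 909 FPKM. Profilin (chic) was at 683 and 842 FPKM. Act5C and Act42A, and the alpha-tubulin copies, are nearly identical over their coding parts, so the split of fragments between them is uncertain.

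Transcription factors were broadly present at moderate levels. Of 123 distinct listed genes, 88 were members (71.5%), against 34.6% of all protein-coding genes. The median lower value over all 123 was 22.8 FPKM, and 13 were at 100 FPKM or more in both controls. The factors that answer to signals and stress were the most complete group, with 37 of 40 as members (92.5%) and a median of 54.3 FPKM. By the lower value, crc, the ATF4 homologue of the integrated stress response, was the highest listed factor, at 937 FPKM in w1118 and 1120 FPKM in attP2. Rel, the NF-kappaB factor of the IMD immune pathway, followed at 718 and 784 FPKM. Xbp1, the effector of the unfolded protein response, was at 321 and 362 FPKM. All 3 genes were above 255 FPKM in each of the 6 libraries, and Rel was highest in Rpn3RNAi at 1076 FPKM. SREBP, the activator of lipid synthesis genes, was at 183 and 242 FPKM, and arm, the beta-catenin of Wnt signalling and cell junctions, at 156 and 185 FPKM. Xrp1, a stress-induced bZIP factor outside the lists that ranked among the 30 highest members outside translation, was at 805 and 1128 FPKM. The repressor E(spl)mbeta-HLH, counted with the progenitor markers and not in these lists, was at 1509 and 910 FPKM, above crc in w1118.

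**Figure D2:**
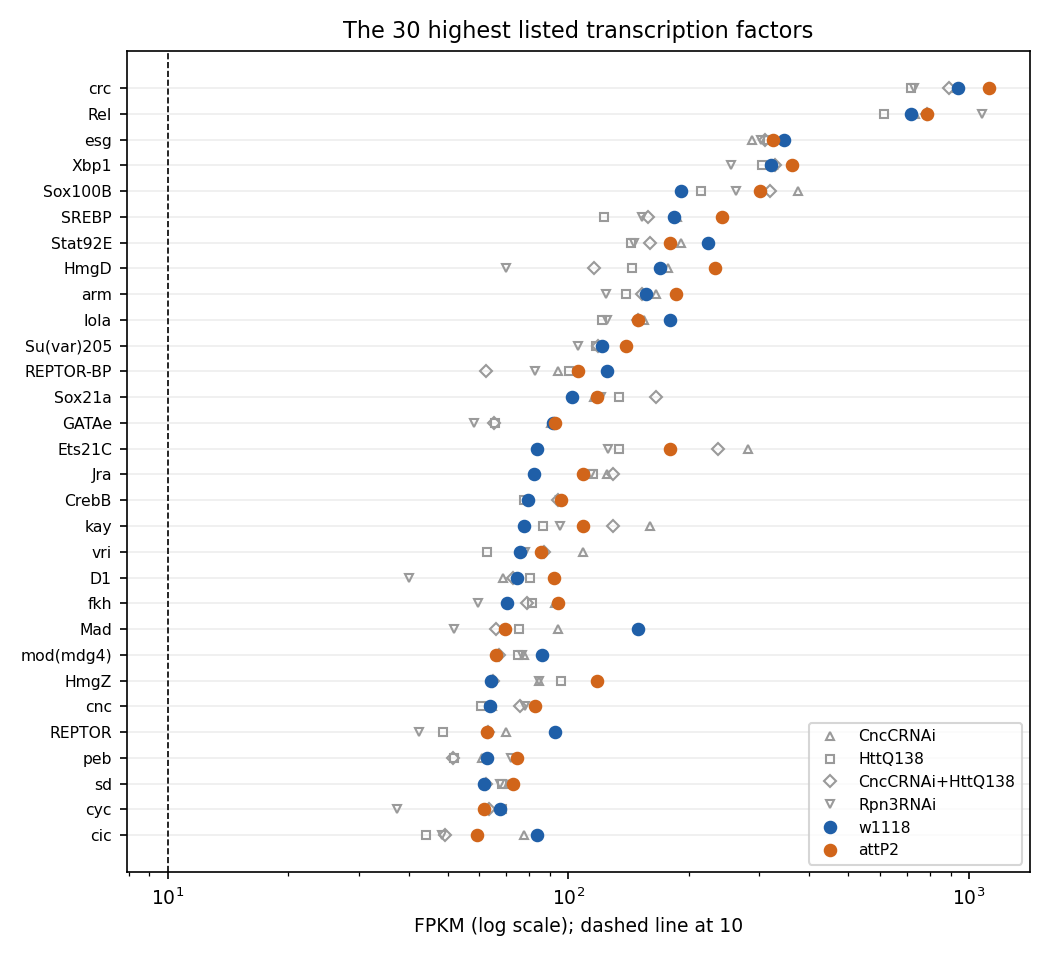
FPKM (log scale) of the 30 listed transcription factors with the highest lower control value, with w1118 in blue, attP2 in orange and the other 4 libraries as open grey symbols, and a dashed line at 10 FPKM. crc, Rel, esg and Xbp1 lead, and the grey symbols of most factors lie near both control values.

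Effectors of several growth pathways were members. The AP-1 partners Jra and kay were at 82.1 and 109 FPKM and at 77.6 and 109 FPKM in w1118 and attP2, and yki, the Hippo pathway co-activator, was at 52.5 and 42.0 FPKM beside its partner sd at 61.8 and 72.6 FPKM. Mad, the BMP effector, was at 150 and 69.6 FPKM, and w1118 stood above all 5 other libraries. Ets21C, an Ets factor of the stress response, was at 83.6 and 179 FPKM, with w1118 lowest of the 6 libraries. cnc, the Nrf2 homologue that is the target of the hairpin used in the series, was at 63.8 and 82.6 FPKM. Only 3 of the 40 were under the threshold in a control: Clk (9.41 and 13.0 FPKM), Su(H), the DNA-binding partner of Notch (5.02 and 4.79 FPKM), and ci, the Hedgehog effector (2.11 and 0.0588 FPKM).

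Regulators of the stem cell lineage were less complete, with 20 of 36 as members (55.6%), against 34.6% of all protein-coding genes. After esg, Sox100B and Stat92E came lola, a BTB zinc-finger factor, at 180 and 149 FPKM. The endoderm factors GATAe and fkh (a FoxA factor) were at 91.4 and 92.6 FPKM and at 70.3 and 94.1 FPKM. Myc, the growth regulator, and its partner Max were at 65.0 and 52.3 FPKM and at 92.4 and 57.1 FPKM. Factors of the enteroendocrine branch were at the bottom of the list: sc was listed at 0 and at 1.53 FPKM, ase at 0 and at 0.441 FPKM, and tap was at 0.329 and 0.706 FPKM. grn and chinmo were listed at 0 in both controls.

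Nuclear receptors were few, with 7 of 21 as members (33.3%), close to the 34.6% of all protein-coding genes. They were the ecdysone-responsive Eip75B (31.9 and 32.6 FPKM), the lipid sensor Hnf4 (41.4 and 26.8 FPKM), ftz-f1 (24.6 and 22.2 FPKM), Hr78, usp, ERR and the xenobiotic receptor Hr96. These values differed by less than 2-fold between both controls. The ecdysone receptor EcR itself was under the threshold at 7.11 and 7.52 FPKM, while its partner usp was at 18.6 and 18.5 FPKM. Hr83, Hr51, svp, knrl, eg, tll and dsf were listed at 0 in both. Of chromatin and core promoter factors, 27 of 30 were members, led by the abundant DNA-bending protein HmgD (170 and 233 FPKM), Su(var)205, which encodes the heterochromatin protein HP1a (122 and 139 FPKM), and the satellite-binding protein D1 (74.4 and 92.3 FPKM). mod(mdg4), an insulator factor, was at 85.9 and 66.1 FPKM, and HmgZ at 64.2 and 118 FPKM.

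Receptors were sparser than transcription factors. Of 131 distinct genes of the receptor and channel lists, 48 were members (36.6%), near the background of 34.6%, and 9 were at 100 FPKM or more in both controls. The immune and integrin genes were the highest listed. pirk, a cytoplasmic inhibitor of IMD signalling that was listed beside the receptors, was at 919 FPKM in w1118 and 906 FPKM in attP2, the secreted recognition protein gene PGRP-SD at 278 and 379 FPKM, and the peptidoglycan-cleaving PGRP-LB at 183 and 331 FPKM. The receptors that start the IMD pathway were lower: PGRP-LC was at 88.7 and 74.0 FPKM and the intracellular PGRP-LE at 31.1 and 36.8 FPKM. Their antagonist PGRP-LF was at 88.4 and 68.6 FPKM. The scavenger receptor crq was at 170 and 124 FPKM and the engulfment receptor drpr at 30.8 and 77.4 FPKM. Tl, the founding Toll receptor, was under the threshold at 0.983 and 0.503 FPKM, and Toll-6 was listed at 0 in both.

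Integrins and other adhesion receptors came next, with 14 of 30 as members (46.7%), against 34.6% of all protein-coding genes. The integrin beta subunit mys, which anchors cells to the basement membrane, was at 327 and 430 FPKM in w1118 and attP2, its alpha partner scb at 291 and 365 FPKM, and the second beta subunit Itgbn at 105 and 117 FPKM. Nrt, a neurotactin, was at 93.3 and 142 FPKM. It was at 149 FPKM in Rpn3RNAi but at 28.9 to 35.2 FPKM in the other 3 libraries. Nrg, the neuroglian of septate junctions, was at 92.8 and 70.3 FPKM. robo3, sns and ds were listed at 0 in both controls.

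**Figure D3:**
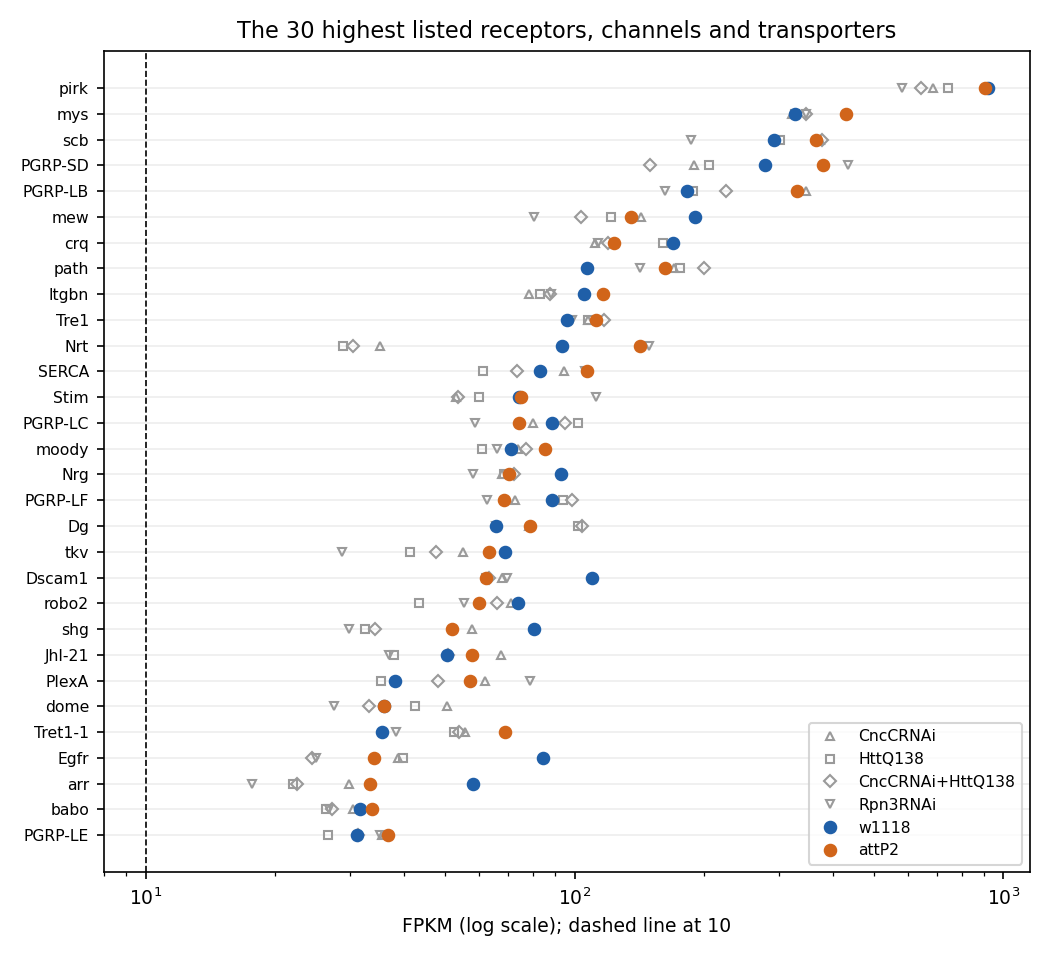
FPKM (log scale) of the 30 genes of the receptor, channel and transporter lists with the highest lower control value, with w1118 in blue, attP2 in orange and the other 4 libraries as open grey symbols, and a dashed line at 10 FPKM. Immune and integrin genes lead, and Egfr, Dscam1 and arr are higher in w1118 than in the other 5 libraries.

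Growth factor receptors were lower, and 12 of 28 were members (42.9%), against 34.6% of all protein-coding genes. The BMP receptor tkv led at 68.7 and 63.2 FPKM in w1118 and attP2, and dome, the JAK/STAT receptor, was at 35.9 and 36.0 FPKM. Egfr was at 84.2 and 34.1 FPKM, and arr, a Wnt co-receptor, at 58.0 and 33.4 FPKM. For both genes w1118 was the highest of the 6 libraries. The activin and BMP receptors babo (31.5 and 33.6 FPKM), put (35.5 and 28.0 FPKM) and sax (23.3 and 31.3 FPKM) were similar in both controls. Pvr, the PDGF/VEGF receptor, was at 25.8 and 46.1 FPKM, the Wnt receptor fz2 at 26.4 and 21.4 FPKM, and the FGF receptor btl at 18.5 and 19.3 FPKM. InR, the insulin receptor, was at 23.7 and 18.4 FPKM, and N, the Notch receptor, at 25.2 and 16.5 FPKM, about 774 and 586 fragments on its long transcript. In both controls N was above its ligand Dl and far below the Notch-responsive E(spl)mbeta-HLH. The Hedgehog receptor ptc was at 0.182 and 0.0516 FPKM, and Alk was listed at 0 in both.

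Listed receptors for hormones and transmitters were mostly near 0. Of 36 listed G protein-coupled receptors 4 were members (11.1%), against 34.6% of all protein-coding genes. The median lower value of the 36 was 0.0724 FPKM, against 1.84 FPKM over all protein-coding genes. In at least 1 control 28 of the 36 were under 1 FPKM. The members were Tre1, a receptor that guides migrating cells (96.2 and 112 FPKM in w1118 and attP2), moody, known from the glial barrier (71.2 and 85.4 FPKM), mthl3 (20.9 and 20.9 FPKM) and mth (25.2 and 15.4 FPKM). These 4 levels differed by less than 2-fold between both controls. Cirl, an adhesion-type G protein-coupled receptor (latrophilin) that was not in the list and was noticed after its values were seen, was higher than all 4, at 505 and 410 FPKM. The allatostatin receptors AlCR2 and AlstR, Takr86C, CCHa2r, Dh44-R1, Oamb, Pk1r and GRHR, as the table spells them, were listed at 0 in both. Of the channels and transporters, 10 of 19 were members (52.6%), against 34.6% of all protein-coding genes. The highest were the amino acid transporter path (107 and 163 FPKM), the calcium pump SERCA (83.0 and 107 FPKM) and the store sensor Stim (74.4 and 75.0 FPKM). JhI-21, an amino acid carrier, was at 50.4 and 57.7 FPKM, the trehalose carrier Tret1-1 at 35.6 and 68.7 FPKM, and the IP3 receptor Itpr at 18.1 and 21.3 FPKM.

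Metabolic genes were nearly complete: 151 of 169 distinct listed genes were members (89.3%), against 34.6% of all protein-coding genes. The median lower value of the listed genes was 86.7 FPKM. The nuclear-encoded respiratory chain and ATP synthase stood highest, with all 44 genes as members, a median of 246 FPKM, and 1.94% and 2.21% of protein-coding FPKM in w1118 and attP2. After ATPsynC and ATPsynbeta (1171 and 1115 FPKM) came sesB (1064 and 1041 FPKM), the outer-membrane channel porin (704 and 914 FPKM), the cytochrome c oxidase subunit cype (626 and 649 FPKM) and the ATP synthase alpha subunit blw (576 and 588 FPKM). Both controls were close throughout this list, with a median ratio of 1.04. Of the TCA cycle, 24 of 25 genes were members, led by Mdh2 at 333 and 309 FPKM, the succinyl-CoA synthetase subunits ScsbetaA (162 and 206 FPKM) and Scsalpha1 (132 and 148 FPKM), Mdh1 (150 and 182 FPKM), the aconitase mAcon1 (146 and 159 FPKM) and Got2 (121 and 187 FPKM).

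Glycolysis was at a lower level and differed more between both controls. Of 16 genes, 14 were members, with a median lower value of 64.9 FPKM, and 13 of these were higher in attP2, with a median ratio of 1.93 against 1.06 over all members. Aldolase (Ald1) was at 261 FPKM in w1118 and 389 FPKM in attP2, Gapdh2 at 227 and 524 FPKM, and Eno at 215 and 494 FPKM. Pyruvate kinase (PyK) was at 174 and 313 FPKM, Gapdh1 at 150 and 286 FPKM, and Pgk at 118 and 158 FPKM. Ldh, which makes lactate, was at 52.5 and 190 FPKM and Pfk, the committing kinase, at 16.3 and 50.7 FPKM, each over 3-fold higher in attP2, as were 1.00% of all members. After scaling to the same total all 14 were higher in attP2. Over all members the shares higher in attP2 were 59.0% as deposited and 74.9% after scaling. Over the other 4 libraries the summed glycolytic level ran from 1096 FPKM in Rpn3RNAi to 2038 FPKM in CncCRNAi, against 1541 FPKM in w1118 and 2969 FPKM in attP2. attP2 was therefore the highest and Rpn3RNAi, which carried a hairpin, the lowest of the 6. The cause of this order was not tested. Pglym87 was listed at 0 in both controls.

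Several detoxification and redox genes were high, and others were near the threshold. Of 21 genes of the pentose phosphate and glutathione list, 20 were members. Of those, 18 were higher in attP2 (median ratio 1.41) and 19 after scaling, against 59.0% and 74.9% of all members. GstD1, a glutathione transferase, was at 756 FPKM in w1118 and 1142 FPKM in attP2, the transketolase-like CG8036 at 401 and 455 FPKM, and the peroxiredoxin Prx2 at 186 and 430 FPKM. Sod1 (163 and 175 FPKM), Sod2 (144 and 147 FPKM) and catalase (Cat, 140 and 183 FPKM) followed. The only gene under the threshold was Zw, glucose-6-phosphate dehydrogenase, the entry enzyme of the pentose phosphate pathway, at 6.53 and 6.29 FPKM. Other genes of this pathway were low members. Pgls was at 14.9 and 11.8 FPKM, Rpe at 15.7 and 28.1 FPKM, and Pgd at 24.9 and 46.7 FPKM. Rpi (47.3 and 54.6 FPKM) and Taldo (54.1 and 83.0 FPKM) were higher but below CG8036. The glutathione supply genes Gclc and Gclm were at 29.4 and 43.2 FPKM and at 35.7 and 52.3 FPKM.

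Both lipid synthesis and lipid breakdown were represented. Of 20 synthesis and storage genes, 16 were members, among them the lipid droplet protein Lsd-2 (347 and 445 FPKM in w1118 and attP2), the sterol carrier Npc2a (277 and 266 FPKM), Lpin (138 and 143 FPKM), Acsl (134 and 176 FPKM) and the desaturase Desat1 (120 and 205 FPKM). The lipase bmm was at 171 and 72.2 FPKM. Of 15 fatty acid oxidation genes, 14 were members, with the electron transfer flavoprotein subunit wal at 226 and 226 FPKM, Mcad at 192 and 249 FPKM, Echs1 at 219 and 170 FPKM, the thiolase yip2 at 137 and 177 FPKM, the carnitine transferase whd at 98.6 and 95.4 FPKM, and scu at 119 and 90.6 FPKM. Nucleotide and one-carbon synthesis had 19 of 28 genes as members. awd was at 1330 and 1337 FPKM, Ahcy at 228 and 232 FPKM and Sam-S at 225 and 269 FPKM, while Shmt (87.4 and 86.4 FPKM), the purine enzyme Gart (83.6 and 65.2 FPKM) and ras, an IMP dehydrogenase (68.3 and 57.4 FPKM), were lower. Prat2 and CG6188 were listed at 0 in both.

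**Figure D4:**
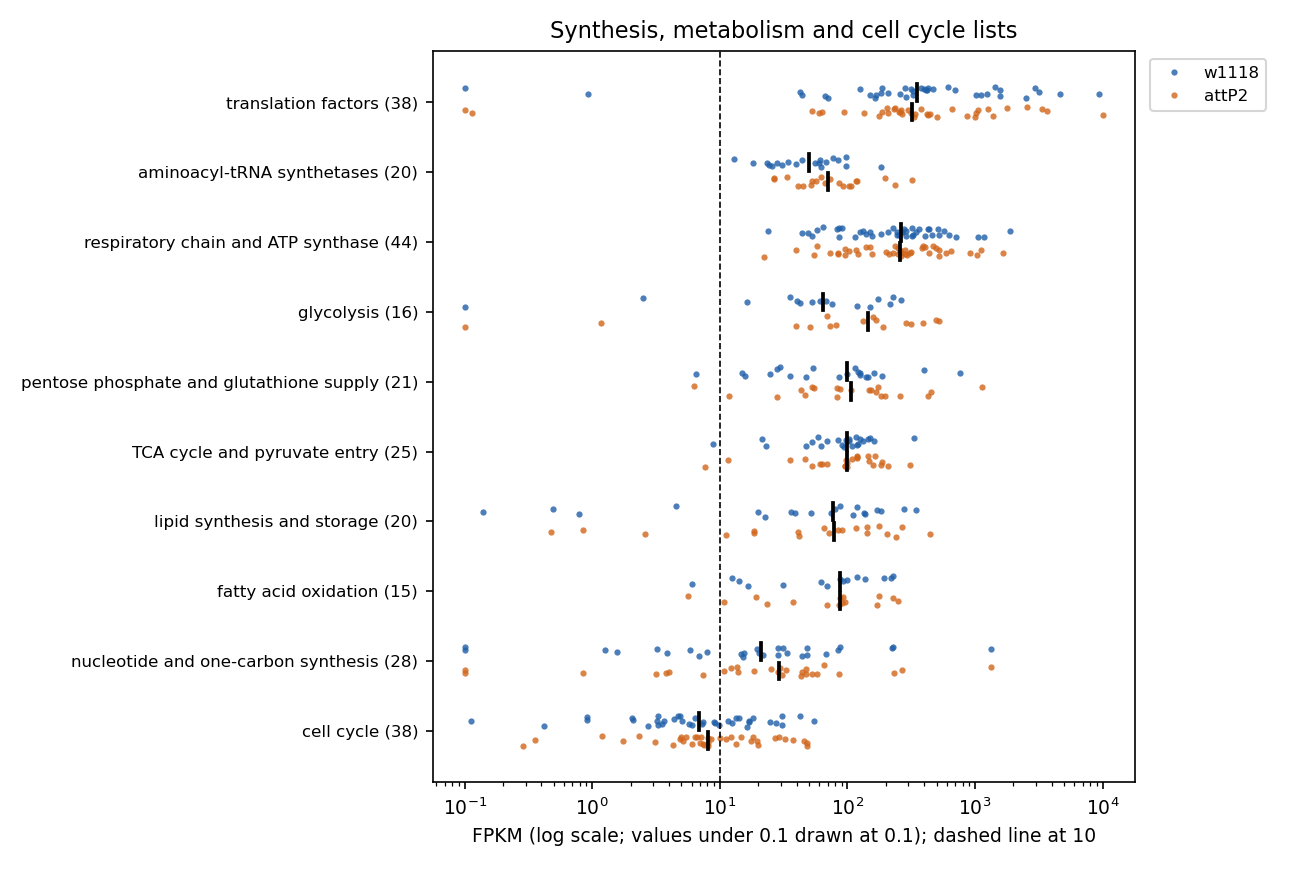
FPKM (log scale) of every gene of the synthesis, metabolism and cell cycle lists in w1118 (blue) and attP2 (orange), with the number of genes in parentheses, a black bar at each list's median and a dashed line at 10 FPKM. Respiratory chain genes are all above the line with medians near 250 FPKM, tRNA synthetase and glycolysis medians lie further right in attP2, and cell cycle medians are left of the line.

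Of the cell cycle genes 14 of 38 were members (36.8%), near the background of 34.6%, and this count was 23 at a threshold of 5 FPKM and 6 at 20 FPKM. Their median lower value was 5.93 FPKM, against 1.84 FPKM over all protein-coding genes, and none reached 100 FPKM in both controls. The highest was fzr, which encodes the APC/C activator that holds cells out of mitosis and drives endocycles, at 54.3 FPKM in w1118 and 45.5 FPKM in attP2. Top2 was at 42.7 and 48.2 FPKM, and dap, the CDK inhibitor of the p21/p27 family, at 30.5 and 32.5 FPKM. E2f1, geminin and PCNA, genes of S phase and its control, were at 30.9 and 29.3 FPKM, 27.6 and 37.5 FPKM, and 24.6 and 48.5 FPKM. Several genes of entry into S phase and mitosis were under the threshold. stg, the Cdc25 phosphatase gene, was at 0.112 and 0.288 FPKM, about 1 and 3 fragments, CycE at 0.908 and 3.13 FPKM, and CycB at 3.50 and 8.10 FPKM. Cdk1 was at 7.34 and 7.58 FPKM. Others were above it, such as E2f1 and CycA, a cyclin of S phase and mitosis, at 17.1 and 19.4 FPKM.

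Markers of other cell types were rarer among the members than protein-coding genes at large: 41 of 221 distinct genes (18.6%) were members, against 34.6%, and their median lower value was 0.434 FPKM. Enterocyte markers gave the most members, 17 of 50 (34.0%). Copper and iron cell markers had 5 of 13 (38.5%), and 3 at a threshold of 20 FPKM. Both shares were near the background. The summed enterocyte level was 1392 FPKM in w1118 and 1427 FPKM in attP2. It ran from 1796 to 5051 FPKM in the libraries CncCRNAi, HttQ138 and CncCRNAi+HttQ138, and was 20920 FPKM in Rpn3RNAi. The defining enterocyte factor nub (Pdm1) was at 1.47 and 4.47 FPKM in the controls. The highest members were the brush border myosin Myo31DF (161 and 182 FPKM), the trypsin alphaTry (131 and 135 FPKM) and the protease Jon65Aiv (129 and 71.9 FPKM). Both controls were below the other 4 libraries for alphaTry, which reached 3867 FPKM in Rpn3RNAi. Trypsins and Jonah proteases lie in clusters of near copies, so their single values are uncertain. The junction proteins mesh (13.6 and 57.5 FPKM), Tsp2A (20.2 and 77.7 FPKM) and Ssk (27.5 and 108 FPKM) were each over 3-fold higher in attP2, as were 1.00% of all members. They did not stand for the whole list. Of its 17 members 11 (64.7%) were higher in attP2, as deposited and after scaling, against 59.0% and 74.9% of all members. The maltase Mal-A1, not a member, was at 2.73 and 43.5 FPKM. Npc2b was listed at 0 in both. The part of enterocyte RNA in these levels was not tested.

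Against 34.6% of all protein-coding genes, 6 of 25 enteroendocrine markers (24%) were members. The hormone genes NPF (396 FPKM in w1118 and 72.6 FPKM in attP2), Orcokinin (56.8 and 40.2 FPKM), ITP (25.1 and 45.3 FPKM) and AstC (17.9 and 21.7 FPKM) were among them, with the peptide-processing enzymes Phm (80.0 and 74.7 FPKM) and svr (42.0 and 37.6 FPKM). The factor that defines these cells, pros, was at 0.788 and 0.535 FPKM, and sNPF was listed at 0 in both. Tk was at 25.2 and 2.33 FPKM and so was not a member. Of 13 copper and iron cell markers, 5 were members: the ferritin subunits Fer2LCH (619 and 684 FPKM) and Fer1HCH (532 and 559 FPKM), MtnA (150 and 27.0 FPKM), Ptx1 (21.3 and 17.1 FPKM) and Ctr1A (21.7 and 13.8 FPKM). Their defining factor lab was at 0.906 and 2.56 FPKM, and MtnB was listed at 0 in both.

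Markers of tissues outside the epithelium gave few members, and the median lower value of each of these 5 lists was under 0.3 FPKM. For visceral muscle 4 of 27 were members: the tropomyosin Tm1 (374 and 466 FPKM in w1118 and attP2), Msp300 (133 and 68.3 FPKM), Zasp52 (51.3 and 61.5 FPKM) and Mef2 (17.4 and 22.3 FPKM). Muscle myosin Mhc was at 0.350 and 0.596 FPKM, and Act88F, TpnC47D, TpnC41C, bap, tin and Hand were listed at 0 in both. For hemocytes the only member of 19 was crq, while Hml was at 0.169 and 0.406 FPKM and PO45, He, nimB5, gcm and nimB1 were at 0. For ovary and germ line the members of 24 were vig (103 and 118 FPKM) and gus (66.9 and 48.0 FPKM), with vas at 0.102 and 0.134 FPKM and osk, otu, the yolk membrane genes Vm26Aa, Vm26Ab and Vm32E, fs(1)N and the chorion genes Cp15, Cp16, Cp19, Cp36 and Cp38 at 0. For neurons and glia the only member of 17 was moody, with elav at 3.87 and 5.34 FPKM and Rdl, fne, para, alrm, VGlut and VAChT at 0. For trachea and epidermis the members of 15 were Cht2 (24.3 and 23.0 FPKM) and btl, with verm, Cpr49Ac, Cpr50Cb, uif and dp at 0. None of these lists moved by as much as 1.5-fold in its sum between both controls.

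Fat body and Malpighian tubule markers were the exceptions in their sums, the tubule list mainly through hdly. Of 19 fat body genes the only member was Yp1, a yolk protein gene, at 10.3 FPKM in w1118 and 75.9 FPKM in attP2, and Yp2 (8.13 and 49.4 FPKM) and Yp3 (8.03 and 51.6 FPKM) moved beside it. The summed fat body level was 49.1 and 207 FPKM in the controls, 56.9 to 124 FPKM in the other 2-day libraries and 583 FPKM in Rpn3RNAi. Lsp1alpha, Fbp2, GRHR, TotA, Obp99a and Obp99b were at 0 in both controls. Of 14 Malpighian tubule genes the members were hdly (199 and 865 FPKM) and Prip, a water channel (27.2 and 76.8 FPKM). Most of the summed tubule level (230 and 953.5 FPKM) was hdly. This gene was at 496 to 868 FPKM in the libraries other than the controls, so w1118 was its lowest. Of the 14 genes, 11 were under 1 FPKM in at least 1 control. Their median lower value was 0.119 FPKM over all 14, against 1.84 FPKM over all protein-coding genes. Uro, a gene that defines the tubule, was listed at 0 and at 1.27 FPKM. The part of fat body or tubule RNA in the levels of other members was not tested.

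**Figure D5:**
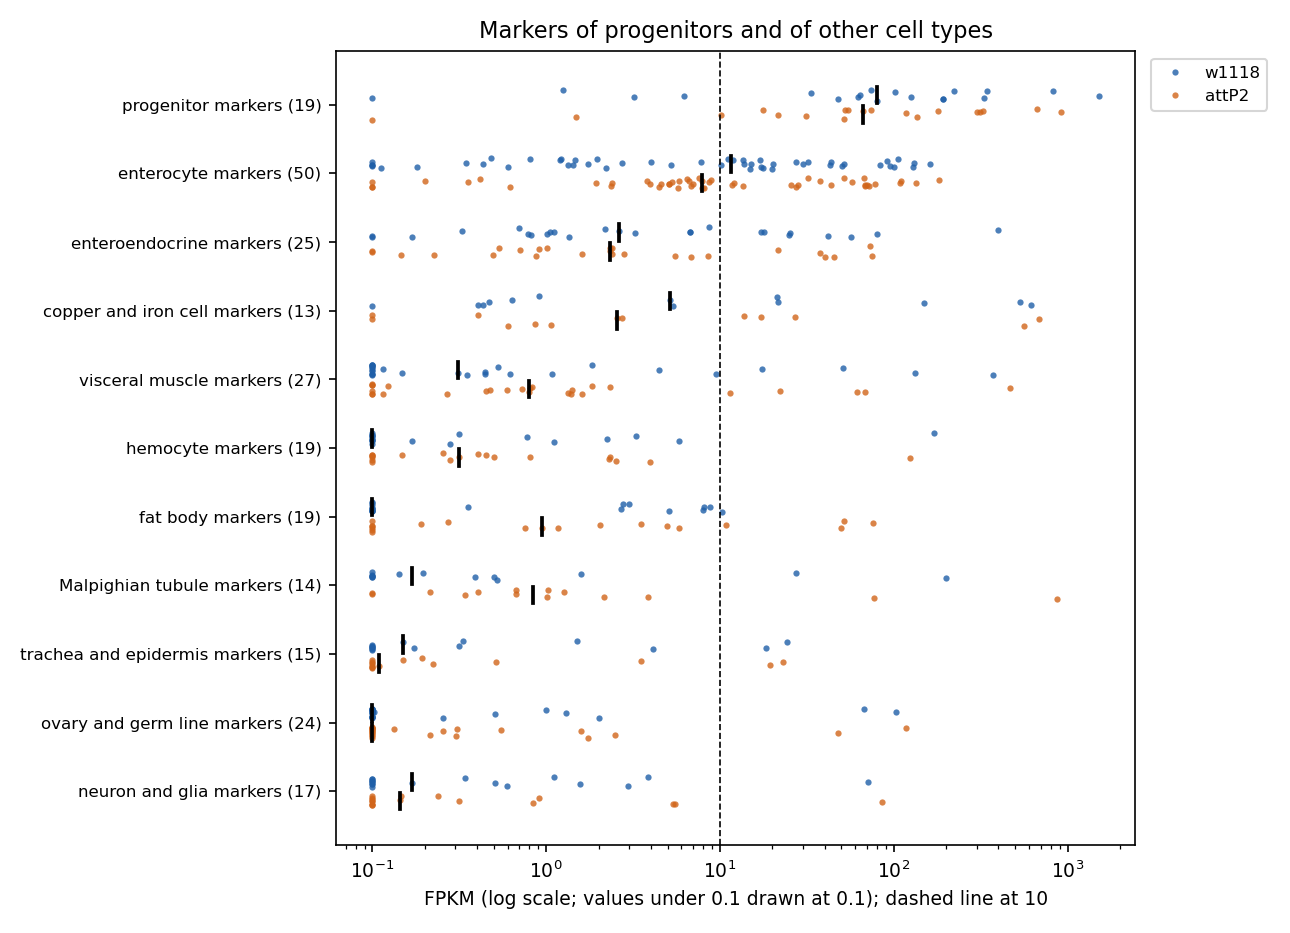
FPKM (log scale) of every gene of the progenitor list and of the 10 lists of other cell types in w1118 (blue) and attP2 (orange), with the number of genes in parentheses, a black bar at each median and a dashed line at 10 FPKM. Progenitor medians lie right of the line, the enterocyte median of w1118 lies just right of it and that of attP2 left of it, and the medians of all tissues outside the epithelium lie under 1 FPKM.

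Levels of the members were close between both controls. The rule itself asks for 10 FPKM in both, which leaves out genes high in only 1 of them, so this closeness is partly set by the rule. Such genes numbered 679. The ratio of attP2 to w1118 was within 2-fold for 95.1% of members, with a median of 1.06 as deposited and 1.19 after scaling both libraries to the same protein-coding total, and Spearman's rho over the members was 0.911, given as a description across genes of 2 libraries. At least 3-fold higher in attP2 were 47 members (1.00%), and at least 3-fold lower were 16 (0.341%). Counting intervals (95%, exact binomial on estimated fragments) cover counting error alone. The largest ratios upward belonged to Yp1 (7.35-fold, 5.43 to 10.3), CG16898 (21.1 and 142 FPKM), Nazo (20.6 and 117 FPKM), ImpL2, a secreted antagonist of insulin-like peptides (10.2 and 53.8 FPKM), and HP1D3csd (13.7 and 68.9 FPKM). The largest downward belonged to the metal-binding MtnA (w1118 5.56-fold higher, 4.15 to 7.69), the hormone NPF (5.45-fold, 4.42 to 6.76), CG30283 (54.7 and 11.0 FPKM), Prx6c (73.8 and 15.6 FPKM) and the phosphoserine phosphatase aay (62.1 and 13.8 FPKM). All 5 of the latter were at 54.7 FPKM or more in w1118 and at 72.6 FPKM or less in attP2. With 1 library per control these ratios compare libraries, not conditions.

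The members were largely shared by the other 4 libraries. At 10 FPKM or more were 4598 members in CncCRNAi, 4422 in HttQ138, 4509 in CncCRNAi+HttQ138 and 4516 in Rpn3RNAi, and 4237 (90.2%) in all 6 libraries. Members held 97.8% and 97.2% of protein-coding FPKM in w1118 and attP2, and 93.4% in Rpn3RNAi, the lowest share of the 6. Some members were far lower elsewhere than in both controls. CG6357 was at 354 and 347 FPKM in w1118 and attP2, at 51.8 FPKM in CncCRNAi and at 91.4 FPKM in CncCRNAi+HttQ138. Cpr51A, a cuticle protein gene, was at 29.0 and 31.3 FPKM and lowest in Rpn3RNAi at 3.47 FPKM. RpS24 was at 5700 and 3940 FPKM and at 634 FPKM in Rpn3RNAi. These examples were chosen after their values had been seen.

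Members differed from other protein-coding genes in length and structure. The longest annotated transcript had a median of 2070 nucleotides over the members and 1534 over the 8874 other protein-coding genes. The 100 highest members were the exception at 969.5 nucleotides, with 53% of them under 1000 nucleotides, while the 100 highest outside the translation lists had a median of 1689. Single-exon genes made up 8.03% of members and 20.5% of the others. Chromosome 4, the small heterochromatic chromosome, had 45 of its 78 protein-coding genes as members (57.7%), the X had 36.5%, the large autosome arms had 31.6% to 35.7%, and the Y had 0 of 8. A threshold in FPKM is reached with fewer fragments by short genes, so length and membership are not independent.

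At the edge of the rule, the last members were Brd8 (10.02 and 11.32 FPKM), MRG15 (14.77 and 10.01 FPKM) and MFS18 (10.32 and 10.01 FPKM). The first genes outside were the zinc-finger factor chn (9.997 and 10.28 FPKM), CG31064 (10.42 and 9.991 FPKM) and Cyp12b2 (9.987 and 17.51 FPKM). In all, 287 protein-coding genes reached 10 FPKM in w1118 alone and 392 in attP2 alone, and 3514 were listed at 0 in both.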

How the data were processed

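GFP-positive cells were sorted from trypsin-digested guts, RNA was extracted with Trizol, and libraries were read as 150 bp pairs on a MiSeq. The authors mapped reads with the Tuxedo suite to genome release 5.75, as they wrote it, and deposited FPKM per gene and library; tool versions are not given in the sources used here. The 10 FPKM minimum and the 3-fold threshold follow the study. Genes were matched to the BDGP6 annotation, Ensembl release 115, by identifier (14927) or symbol and synonym (367); 309 were not matched, 37 of them at 10 FPKM or more in both controls. 99 noncoding or pseudogene entries at that level were left out. Transcript lengths, exon numbers and chromosomes came from the BDGP6 annotation, and sequences were not used here. Fragment depth was estimated from the steps of low FPKM values, with transcript lengths reduced by 153 nucleotides, and the method was tested on simulated data. Ratios were taken without a pseudocount. With 1 library per condition no test was run. The members, 31 gene lists and 1 list added later were chosen with earlier results of these data known, and 9 of their names had no match. Named genes were the 30 highest members, the 6 highest members of each list (3 for other cell types) with markers at 0, all progenitor markers, the 5 largest ratios each way, and 3 genes on each side of the threshold, with a summed level or range standing for most ribosomal proteins; other genes named were chosen after their values were seen. Alternatives were thresholds of 5 and 20 FPKM, the mean of both controls, scaling to 1000000, all 6 libraries, transcripts of at least 300 nucleotides, and pseudocounts of 1 and 10. Python 3.11.15, pandas 2.3.3, NumPy 2.4.6, SciPy 1.17.1 and matplotlib 3.10.9 were used.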

Additional observations from a re-analysis of the deposited data

How the results depend on the processing

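The number of members fell to 3054 at a threshold of 20 FPKM. It was 5874 at 5 FPKM, 5087 with the mean of both controls, 5307 after scaling to 1000000, 4237 over all 6 libraries and 4695 with transcripts of at least 300 nucleotides, each within 1.5 times the 4697 reported. Members at least 3-fold higher in attP2 numbered 77 after scaling, 16 with a pseudocount of 10 and 18 at 20 FPKM or more, against 47. Members at least 3-fold lower numbered 6 with a pseudocount of 10 and 7 at 20 FPKM or more, against 16. Of 96 alternative counts over the lists, 87 stayed within 1.5 times and 9 moved, 6 of those at 20 FPKM. No paired analysis was possible because each condition is 1 library. Depth limits the lowest values: 10 FPKM of a 1000-nucleotide transcript rests on about 26 to 30 fragments in the controls.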
